A study of Arabidopsis thaliana with 6 samples.

Results

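The SOUL heme-binding genes of Arabidopsis thaliana form a small family, and 6 loci of it were sought in leaf arrays of plants sprayed with salicylic acid (SA). Loci were taken through the array's probe annotation, with the brightest probe set kept where a locus had several. Of the 6 loci, 2 had a probe set named there: AT1G78450 (probe set 263133_at) and AT1G78460 (probe set 263126_at), out of 13286 genes measured in all. Each was read by 1 probe set. The others, AT1G17100 (HBP1), AT2G37970 (SOUL-1, also HBP2), AT3G10130 and AT5G20140 (HBP5), were not analysed here, so the intended contrast of the falling pair with the rest of the family could not be made. The annotation listed 14016 of 22746 probe sets. A gene is called measured where a probe set was matched to it, so a gene not measured may still be on the array. The pair was chosen by its SA and mock log2 signals, which were lower after SA. The SA and mock values of both genes are therefore a description and carry no test.

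Leaves came from plants 3 to 4 weeks old and were collected 2 hours after spraying. The mock group received the wetting agent Silwet at 0.01% and no SA, and the SA group received 1 mM SA in the same Silwet solution. No genotype, accession of the plants or mutation was stated in the labels, and both groups had the wetting agent in common. Each group had 3 biological replicates, each on 1 Affymetrix ATH1 array read as log2 signal, which makes 6 arrays.

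SOUL proteins are named after a heme-binding protein first described in chicken, and they bind heme and related porphyrins. Heme is made in plastids by a pathway that it shares with chlorophyll up to protoporphyrin, and free heme is reactive. Heme-binding proteins are regarded as carriers or buffers for it. In Arabidopsis the family holds members in the cytosol and members in the chloroplast, and HBP5 binds HY1, the plastid heme oxygenase that opens the heme ring.

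The arrays had median log2 signals of 7.41 to 7.46 in the SA group and 7.49 to 7.51 in the mock group. Any 2 arrays correlated across probe sets with Pearson's r from 0.959 to 0.986. The arrays numbered 1 stood apart by a spike-in control, AFFX-DapX-3_at, which read 11.52 (mock) and 11.42 (SA) on the log2 scale against 8.27 to 8.44 on the other 4 arrays. Results are therefore also given for the arrays numbered 2 and 3 alone. Leaf identity was checked with 3 measured mesophyll markers. RCA, which activates Rubisco, had a log2 signal of 13.86 to 14.11 over the 6 arrays, while the root hair expansin EXPA7 and the root peroxidase PRX72 had 6.05 to 6.59 and 4.01 to 4.29. The other mesophyll markers, LHCB4.2 of the light-harvesting antenna and PRK of carbon fixation, had log2 signals of 13.25 to 13.61 and 12.65 to 13.07. The log2 changes of RCA, LHCB4.2 and PRK were 0.0044 ± 0.11, -0.23 ± 0.098 and -0.25 ± 0.11 (SE of the fit, limma adjusted p = 0.996, 0.371 and 0.400). LHCB4.2 and PRK were lower in SA under all 3 replicate numbers. The groups of LHCB4.2 did not overlap, as in 18.0% of all genes. FMA of guard cells and TRY of trichomes, the only other cell type markers measured, had log2 changes of -0.22 ± 0.13 and -0.36 ± 0.31 (SE of the fit, limma adjusted p = 0.591 and 0.752). Their part in the results below was not tested. No flower marker was analysed here.

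Mock replicates 1, 2 and 3 gave AT1G78450 log2 signals of 7.86, 7.62 and 7.04. In SA replicates 1, 2 and 3 it had 5.72, 5.85 and 5.46. All SA arrays lay below all mock arrays, with a gap of 1.19 log2 units between the lowest mock and the highest SA value. The group means were 7.50 ± 0.42 (SD, n = 3) in mock and 5.68 ± 0.20 (SD, n = 3) in SA leaves, and the fitted log2 change was -1.83 ± 0.23 (SE), a 3.55-fold lower signal. In order of log2 change from the lowest, it stood at place 6 of 13286 genes.

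AT1G78460, its immediate neighbour on chromosome 1, had log2 signals of 11.54, 11.25 and 11.38 in mock replicates 1, 2 and 3. After SA the same numbers gave 10.34, 10.30 and 10.11. These groups were apart as well, with a gap of 0.91 log2 units. The means were 11.39 ± 0.15 (SD, n = 3) in mock and 10.25 ± 0.12 (SD, n = 3) in SA leaves, and the log2 change was -1.14 ± 0.12 (SE), a 2.21-fold lower signal. It stood at place 86 in the same order. Probe sequences were not used here, and whether the probe set of one gene also reads the other was not tested. In bulk leaf RNA, fewer cells with a transcript and less transcript per cell cannot be told apart.

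**Figure D1:**
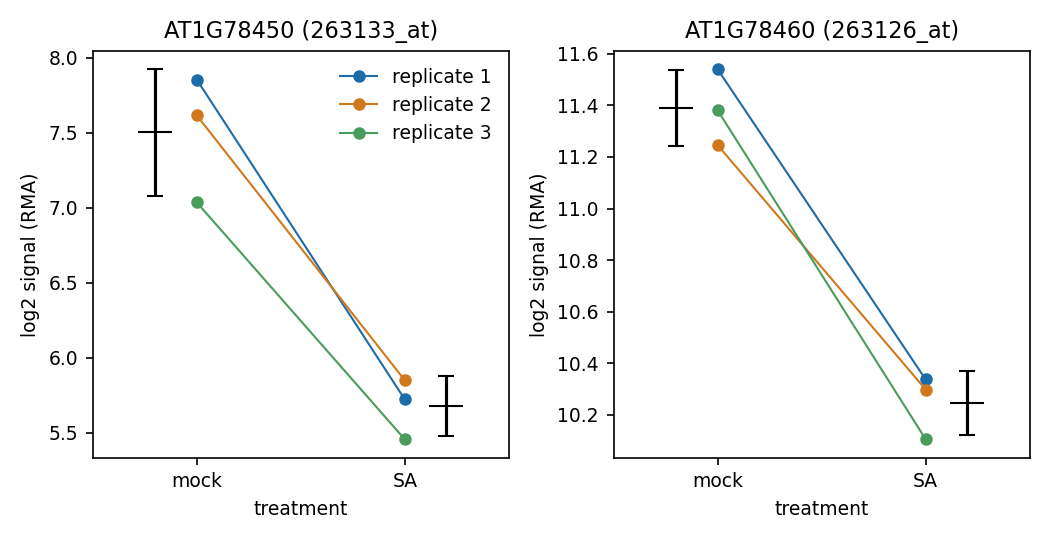
Log2 signal (y axis) of AT1G78450 and AT1G78460 in mock and SA leaves (x axis). Points are single arrays, lines join arrays with the same replicate number, and black marks with bars give the mean and SD of 3 arrays. In both panels each SA array lies below each mock array, and the AT1G78450 values span more than those of AT1G78460 (the y axes differ).

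Both genes passed the limma fit over all genes at a Benjamini-Hochberg adjusted p under 0.05. Across all genes 0.595% passed with a lower SA signal (79 genes), or 4.76% with the replicate number as a block. Mock and SA arrays did not overlap in 18.0% of genes, and SA arrays lay wholly below mock arrays in 9.45%. A log2 change of -1 or lower was seen in 0.956% of genes, and the median change over all genes was -0.0077, with quartiles of -0.15 and 0.10. These shares are the background of the counts. Nothing is read from the pair's place in them, since the same values chose it.

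**Figure D2:**
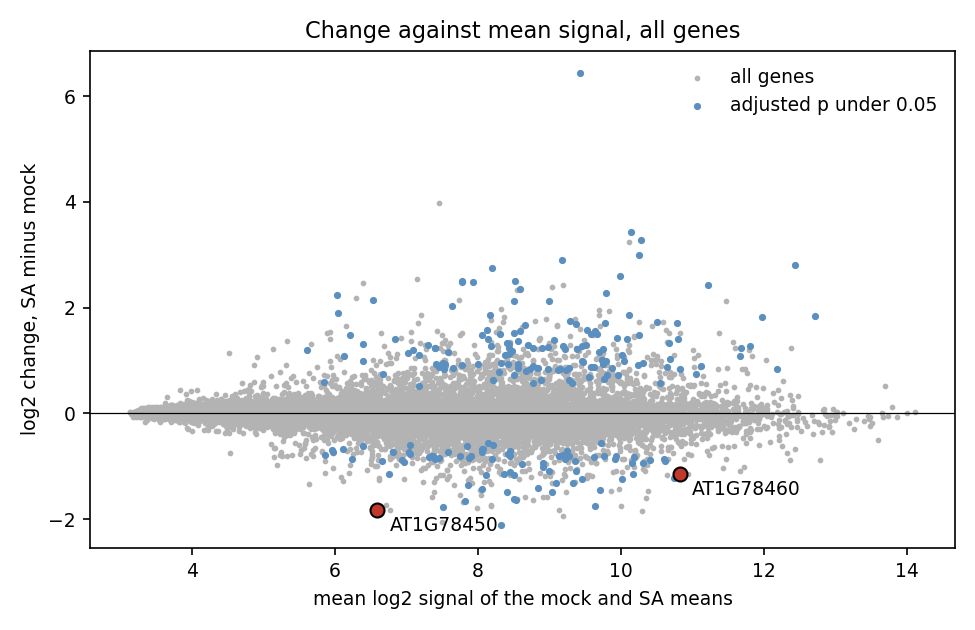
Log2 change, SA minus mock (y axis), against the mean of the mock and SA log2 signals (x axis) for 13286 genes. Blue points passed the limma fit, grey points did not, and the red points are AT1G78450 at -1.83 and AT1G78460 at -1.14.

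On the deposited values the change was of unequal size in the 2 genes. Within the arrays numbered 1, 2 and 3, SA minus mock was -2.13, -1.77 and -1.58 in AT1G78450. In AT1G78460 it was -1.20, -0.95 and -1.28. AT1G78450 had the more negative difference under every replicate number, and its change minus that of AT1G78460 was -0.93, -0.82 and -0.30 log2 units, -0.68 on average. The gap between the genes was thus narrowest under number 3, where AT1G78450 had its lowest signal in both groups and AT1G78460 its most negative difference. The size of the gap also depended on processing. With 32 linear units added to every signal, the log2 changes were -1.36 in AT1G78450, the dimmer of the pair, and -1.12 in AT1G78460.

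The replicates of AT1G78450 spread more widely than those of AT1G78460 in mock leaves, with an SD of 0.42 against 0.15. The median SD over all genes was 0.17 in mock and 0.16 in SA leaves. Mock replicate 3 deviated from the mock mean by -0.47 in AT1G78450 and by -0.0081 in AT1G78460. On 5 of the 6 arrays both genes deviated from their group means to the same side, and mock replicate 2 was the exception, with a deviation of 0.11 for AT1G78450 and -0.14 for AT1G78460.

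Both log2 changes were negative in every setting tried, from -1.36 to -2.06 in AT1G78450 and from -1.07 to -1.21 in AT1G78460. The pair was chosen for its fall, and all its SA arrays lay below all its mock arrays. Leaving out arrays could therefore not turn the sign, and only the sizes are informative. Fits with fewer arrays call fewer genes, 5 to 57 without 1 array against 217 with all, so the calls there say nothing on stability. Without any 1 of mock replicates 1 and 2 and SA replicates 1, 2 and 3, neither gene passed, with log2 changes of -1.65, -1.77, -1.85, -1.91 and -1.72 in AT1G78450 and of -1.07, -1.21, -1.19, -1.17 and -1.07 in AT1G78460. Without mock replicate 3, AT1G78450 passed with a change of -2.06 and AT1G78460, at -1.15, did not. With only the arrays numbered 2 and 3, the changes were -1.67 ± 0.26 and -1.11 ± 0.13 (SE), and 0 of the 2 genes passed. Those 4 arrays gave 4 called genes in all.

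**Figure D3:**
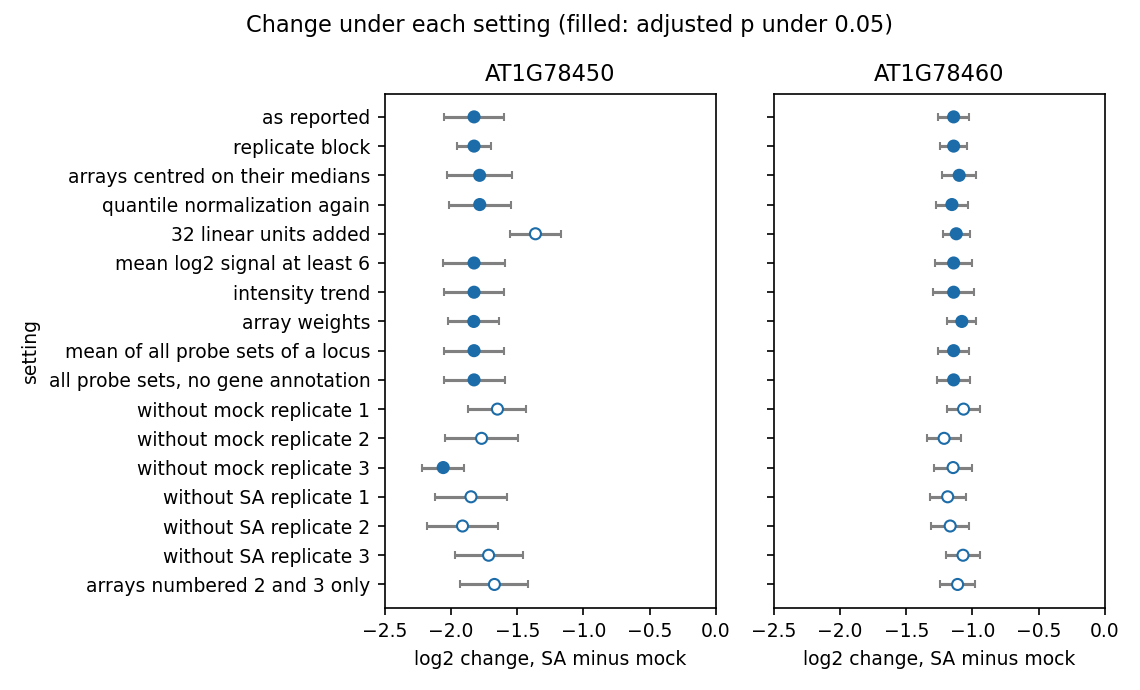
Log2 change, SA minus mock (x axis), of AT1G78450 and AT1G78460 under each processing setting (y axis). Points are fitted changes with SE bars, filled where the adjusted p was under 0.05. All points lie below 0, between -2.06 and -1.07, and most open points belong to fits with fewer arrays.

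The 10 measured neighbours of the pair on chromosome 1, 5 on each side in RefSeq order, had log2 changes from -0.29 to 1.64. Limma called 0 of them, against 1.63% of all genes. An unadjusted p under 0.05 was found in 2, against 13.8% of all genes, and 3 lay below 0, against 52.0%. Their median change was 0.073. The glutathione transferase genes GSTU22, GSTU21 and GSTU20 had log2 changes of 0.045 ± 0.081, 0.25 ± 0.12 and 0.17 ± 0.31 (SE). AT1G78470, the next measured locus after AT1G78460, had log2 signals of 4.95, 4.92 and 5.05 in mock and 5.03, 4.94 and 5.24 in SA leaves, and its groups overlapped.

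The neighbours with an unadjusted p under 0.05 were higher in SA leaves. AT1G78410, the nearest measured locus before the pair, had log2 signals of 7.77, 8.29 and 7.33 in mock and 9.21, 9.21 and 9.89 in SA leaves. Its change of 1.64 ± 0.30 had a limma adjusted p = 0.0619 without the replicate number in the fit and 0.0336 with it. AT1G78550, beyond AT1G78460, had 8.38, 7.68 and 7.74 in mock and 9.58, 8.82 and 8.72 in SA leaves. Its change of 1.11 ± 0.29 had an adjusted p = 0.152 without the number and 0.00497 with it. Over all genes, 9.91% were called with the replicate number as a block.

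**Figure D4:**
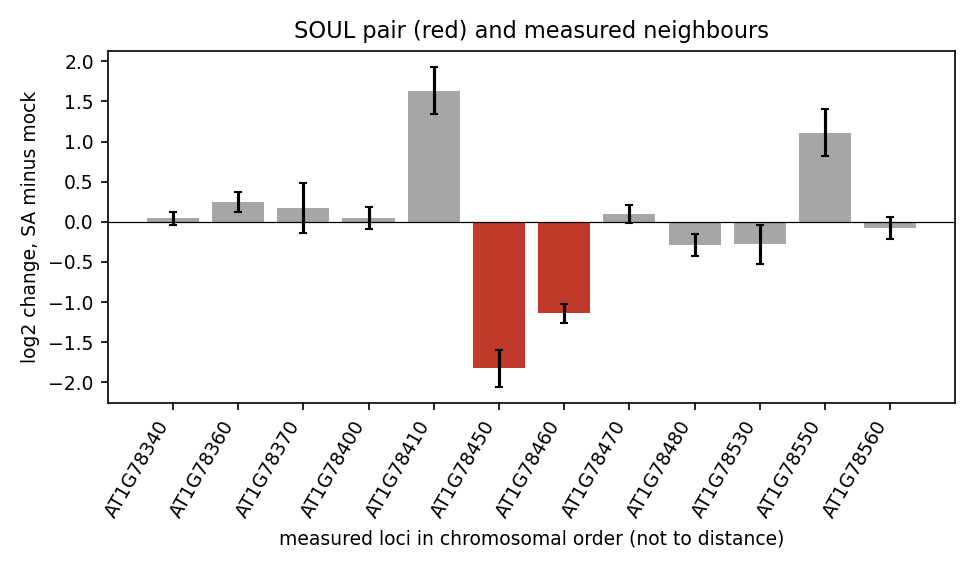
Log2 change, SA minus mock (y axis), of the SOUL pair (red) and 10 measured neighbours (grey) in chromosomal order (x axis, not to distance). Bars start at 0 and error bars are the SE of the fit. AT1G78410 and AT1G78550 point upward at 1.64 and 1.11, while AT1G78450 and AT1G78460, chosen because they fell, are the only bars below -1.

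Likeness of pattern was measured as Pearson's r of log2 signal over the 6 arrays among 3697 genes with an SD of at least 0.3. The arrays fall into 2 treatment groups and the pair was chosen for that difference, so r mostly follows treatment and is given as a description. Between AT1G78450 and AT1G78460 r was 0.967. AT1G78460 was number 44 among the genes most like AT1G78450, and AT1G78450 number 27 among those most like AT1G78460. An r of at least 0.95 was reached by 74 genes with AT1G78450 and by 49 with AT1G78460.

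The gene most like AT1G78450 was LPA66 (AT5G48910, r = 0.997), a pentatricopeptide repeat protein of chloroplast RNA editing. Its log2 signals were 7.99, 7.85 and 7.66 in mock and 6.94, 7.08 and 6.88 in SA leaves, so mock replicate 3 and SA replicate 3 were the lowest of their groups, as in AT1G78450. AT3G28140, AT1G13640, AT1G11410 and AT1G32740 followed, with r of 0.993, 0.993, 0.992 and 0.992. The log2 changes of these 5 genes ran from -0.87 in LPA66 to -0.55 in AT1G11410, each smaller in size than that of AT1G78450.

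The gene most like AT1G78460 was CRR21 (AT5G55740, r = 0.996), another pentatricopeptide repeat protein of chloroplast RNA editing. It had log2 signals of 6.80, 6.67 and 6.65 in mock and 6.15, 6.11 and 5.97 in SA leaves. AT2G03750, AT5G14370 and AT3G53950 followed with r of 0.994, 0.992 and 0.992, and Cpn60beta4 (AT1G26230), a subunit of the chloroplast chaperonin, with 0.988. Their log2 changes ran from -0.84 in AT2G03750 to -0.63 in CRR21. None of these genes was among the 5 most like the other member of the pair.

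Genes of tetrapyrrole metabolism, which makes and breaks down heme and chlorophyll, and of plastoglobules were taken from 6 lists with 71 members. Of these, 21 were measured. Over all of them limma called 0, against 1.63% called over all genes, and 3 had an unadjusted p under 0.05, against 13.8% of all genes. With the replicate number as a block limma called 1 of them, PORB, against 9.91% of all genes. Mock and SA arrays did not overlap in 3 of the 21, PORB, SGRL and ABC1K5, against 18.0% of all genes. These shares are also the background for each list below. The median log2 change of the 21 was -0.12, and 13 lay below 0, as did 52.0% of all genes. That median depended on single arrays: it was -0.031 when mock replicate 1 was left out, -0.14 when mock replicate 2 was and -0.017 when mock replicate 3 was. Leaving out SA replicate 1, 2 or 3 gave -0.078, -0.044 or -0.054. It was -0.044 with array weights, -0.080 with centred arrays and -0.067 with the arrays numbered 2 and 3 only. The remaining settings gave -0.14 to -0.11. No member of the lists of heme breakdown and of other heme carriers and globins was analysed here, so the heme oxygenases carry no value.

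In the tetrapyrrole and heme synthesis list, 8 of 20 members were measured, 0 rose and 0 fell in limma, and 0 had an unadjusted p under 0.05. Their median log2 change was 0.095, with 1 below 0, against 52.0% of all genes. HEMA2, a glutamyl-tRNA reductase of the first step, had log2 signals of 7.48, 6.96 and 7.20 in mock and 7.83, 7.20 and 7.92 in SA leaves, and its groups overlapped. Its change was 0.43 ± 0.23 (SE, adjusted p = 0.508 in limma). SA minus mock was 0.34, 0.24 and 0.72 under replicate numbers 1, 2 and 3. With the replicate number as a block the SE was 0.12 and the limma adjusted p was 0.0911. GSA1, which makes aminolevulinic acid, HEMB1, which joins that acid into a pyrrole, and HEMF2, of the coproporphyrinogen oxidase step, had log2 changes of 0.18 ± 0.17, 0.12 ± 0.14 and -0.16 ± 0.26.

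In the chlorophyll synthesis list, 3 of 13 members were measured, and limma called 0 with 1 at an unadjusted p under 0.05. That gene was PORB, which reduces protochlorophyllide in light. PORB had log2 signals of 12.29, 11.90 and 12.47 in mock and 11.61, 10.56 and 11.43 in SA leaves. All SA arrays of PORB lay below all mock arrays, and SA replicate 2 was the lowest. Its change of -1.02 ± 0.30 (SE) had an adjusted p = 0.196 in limma without the replicate number and 0.0149 with it. CHLM, a methyltransferase of the magnesium branch, and CHLI2, a subunit of magnesium chelatase, had changes of -0.24 ± 0.21 and -0.12 ± 0.24. Under replicate numbers 1, 2 and 3, SA minus mock was -0.23, -0.19 and -0.29 in CHLM. In CHLI2 it was -0.27, -0.021 and -0.075. With the replicate number as a block their SEs were 0.080 and 0.091, and the limma adjusted p was 0.148 and 0.517.

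In the chlorophyll breakdown list, 2 of 11 members were measured and limma called 0, with 1 at an unadjusted p under 0.05. SGRL, a stay-green-like protein that removes magnesium from chlorophyll pigments, had log2 signals of 10.38, 10.44 and 10.49 in mock and 9.72, 10.17 and 10.17 in SA leaves. Its groups did not overlap, and its change was -0.41 ± 0.15 (SE, adjusted p = 0.282 in limma). NOL, a chlorophyll b reductase, had a change of -0.15 ± 0.18.

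Plastoglobules, lipid droplets of the chloroplast, were included because AT3G10130 belongs to their proteome. Of 17 listed members 8 were measured, and limma called 0, with 1 at an unadjusted p under 0.05. Their median log2 change was -0.15, and 7 of the 8 lay below 0, against 52.0% of all genes. ABC1K5, an atypical kinase, had log2 signals of 9.30, 9.37 and 9.11 in mock and 8.87, 8.97 and 9.04 in SA leaves, which did not overlap. Its change was -0.30 ± 0.11 (SE, adjusted p = 0.281 in limma). FBN2, a fibrillin, ABC1K9, another atypical kinase, and NDC1, a quinone reductase, had changes of -0.15 ± 0.13, -0.29 ± 0.28 and 0.090 ± 0.11.

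**Figure D5:**
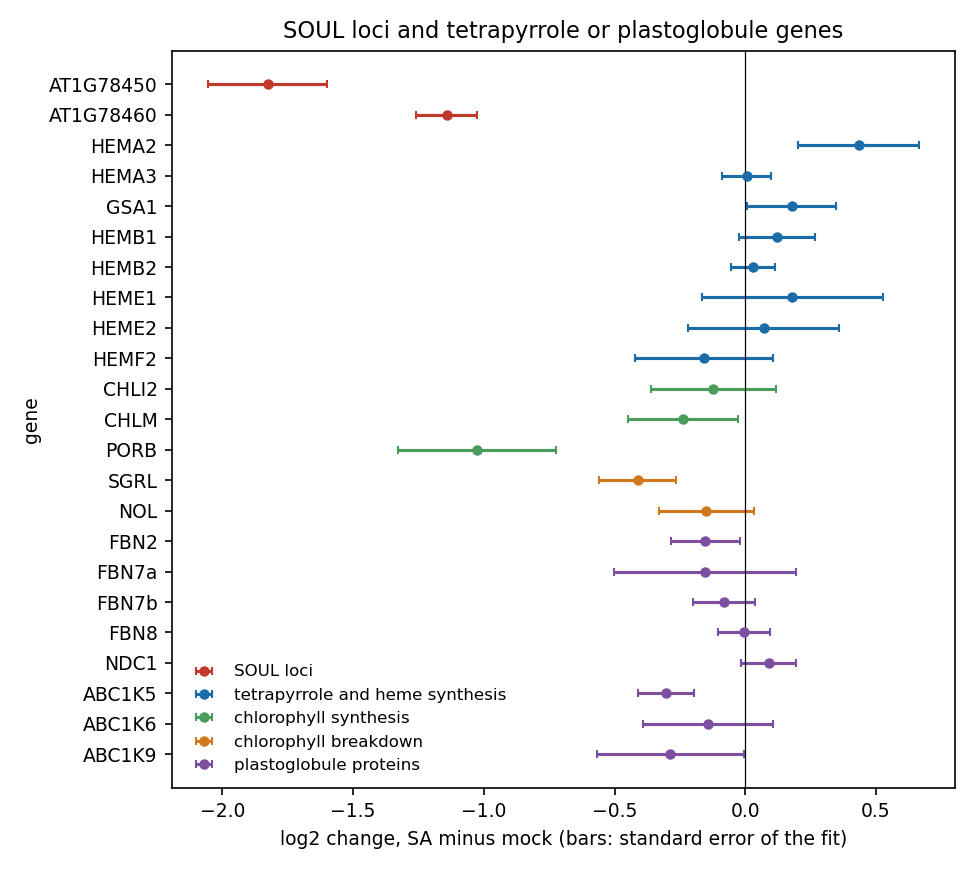
Log2 change, SA minus mock (x axis), of the 2 SOUL loci and of 21 measured genes of tetrapyrrole metabolism and plastoglobules (y axis), coloured by list. Points are fitted changes and bars the SE. The list genes lie between -1.02 (PORB) and 0.43 (HEMA2). AT1G78450 and AT1G78460 lie at -1.83 and -1.14, and they were chosen because they fell. The SE bars of AT1G78460 and PORB overlap.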

How the data were processed

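The deposited table held 22810 probe sets as log2 signals, made by the authors with RMA per the submitters' processing notes. Version, annotation and filters: not given in the sources used here. RMA equalises arrays and so takes out most of any change common to the majority of genes. After 64 control probe sets were set aside, 22746 remained, of which 14016 were listed in the probe annotation. Of those, 13436 matched 1 locus of RefSeq TAIR10.1 through the gene identifier, and the brightest per locus left 13286 genes. Neighbour order came from RefSeq, with no coordinates printed because none is named for the deposited table.

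SA minus mock was fitted on the deposited values with limma 3.58.1 in R 4.3.3 (lmFit, eBayes, treatment as the only term), and the script was tested on simulated data. Values with ± on a change are standard errors. The number of arrays limits the precision, and an exact test of 3 against 3 arrays cannot give a two-sided p below 0.1.

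Arrays with the same number deviated together, with correlations of 0.75, 0.46 and 0.55 over probe sets, all above 0.1. Arrays with unlike numbers had lower correlations, from -0.59 to 0.14. That of mock replicate 3 with SA replicate 2, at 0.14, was also above 0.1. The numbers were therefore taken as pairing the arrays. The fit with the number as a block is given beside results whose call it changes, and for HEMA2, CHLM and CHLI2. All other values come from the fit without it, so their standard errors also hold the differences between replicate numbers. A wide standard error there does not mean that the change varied between numbers. The pairing rests on the values, since the labels give no meaning for the number. The SOUL loci, lists and tests were chosen with earlier results of these data known. Named were both SOUL loci, up to 4 genes per list by smallest p, 5 neighbours a side and the 5 most alike genes. Alternatives were the replicate block, centring, repeated quantile normalization, added signal, a filter on low values, an intensity trend, array weights, other probe set rules and leaving out arrays.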

Additional observations from a re-analysis of the deposited data

How the results depend on the processing

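The log2 change of AT1G78450 moved beyond its replicate SD in 1 of 16 alternatives, to -1.36 with 32 linear units added, by construction since added signal weighs most on dim probe sets, and its call was lost there, which left 1 of 2 SOUL loci called. Without 1 array its change ran from -2.06 to -1.65, and that of AT1G78460 from -1.21 to -1.07. The count of SOUL loci called ran from 0 to 1 without 1 array and was 0 with the arrays numbered 2 and 3 only, an alternative chosen after seeing the data, and 2 in the other 8. The pair was chosen by these same values. Its calls, here and with the replicate block, are therefore no test and no measure of robustness. With the replicate block both loci passed, with standard errors of 0.13 and 0.099, and 1 tetrapyrrole list gene, PORB, was called against 0 without it. The block changed no other call of a SOUL or list gene. Over all genes 217 were called (138 rises, 79 falls). The block gave 1316, array weights 479, all probe sets without annotation 334, the intensity trend 143 and 32 added units 135. Fits without 1 array gave 5 to 57, and the arrays numbered 2 and 3 only gave 4. Causes of these shifts were not tested. In the fits with fewer arrays, the number of samples and the choice of arrays changed together. Centring on the medians gave 118 rises and 41 falls (74.2% rises against 63.6%).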

Other observations

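Several tetrapyrrole genes differed more between replicate numbers than between treatments; they were named after their values were seen. HEME1, a uroporphyrinogen decarboxylase gene of heme and chlorophyll synthesis, had log2 signals of 8.96, 9.18 and 10.01 in mock and 9.19, 9.38 and 10.11 in SA leaves, so the arrays numbered 3 were the highest of both groups. They were also highest for HEME2, HEMF2, CHLI2 and CHLM, where the mean of number 3 exceeded that of numbers 1 and 2 by 0.73, 0.56, 0.59 and 0.52 log2 units, against 0.88 in HEME1. AT1G78450 had its lowest signal on the arrays numbered 3 of both groups. AT1G78460 did so only in SA leaves (10.11), and its lowest mock signal was on number 2 (11.25). The share of all genes lowest on number 3 was not counted. Of the 21 list genes, 8 were highest on the number 3 arrays in both groups and 8 on the number 1 arrays, against 19.3% and 23.0% of all genes. What a replicate number marks is not stated in the labels, and its part in these values was not tested.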
